A study of Mus musculus with 3 samples.

Results

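The complement set examined here holds 9 mouse genes chosen by symbol, C1ra, C1s1, C2, C4b, Cfb, Cfd, C3, Serping1 and Cd55, out of 18245 genes in the table. The rule names them by symbol and uses no expression value, although the list was drawn up with earlier results of these data known, and the C1q chains are not among them. They were read in 9 libraries of poly(A) RNA from 3 kinds of cultured cell. The labels give the ventricle epicardium, the outer layer of the heart, of C57BL/6 mice as the tissue of all 3 kinds. Cardiosphere-derived cells (CDCs, labelled cdc) grew out of explants of 6-week-old mice by way of floating spheres and were used at passage 3. The cells labelled cdc_EpiCs are epithelial cells taken with cloning cylinders from CDC cultures that had received 10 µM SB-431542, a small molecule that blocks signalling by TGF-beta type I receptors, for 2 weeks. The labels call them a clone in 1 place and clones in another, so how many clones the 3 libraries hold is not stated. Primary epicardial cells (labelled pEpiCs) were digested from the hearts of mice aged 6 to 8 weeks and were used at passage 3 without the inhibitor. They were isolated in another way and grown in another medium than CDCs, so kind of cell, isolation and medium cannot be told apart. The cdc_EpiCs were both treated and picked for their shape, so inhibitor and selection cannot be told apart either. No passage is given for cdc_EpiCs. Each kind has 3 library columns (n = 3), which were treated as replicates. The extraction protocol speaks of separate samples for each kind, whereas the methods of the study name fewer biological replicates than there are columns. The labels do not say whether they are separate animals or cultures, so p-values measure the spread between these libraries, which may be technical.

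Complement is a cascade of blood proteins that coats targets with fragments of C3. In the classical pathway the proteases C1r and C1s, carried by C1q, cleave C4 and C2, and the products form an enzyme that cleaves C3. In the alternative pathway factor B takes the place of C2 after factor D has cut it, and the loop amplifies the first C3 fragments. The C1 inhibitor (Serping1) blocks C1r and C1s, and CD55 on the cell surface takes the C3-cleaving enzymes apart. The liver makes most of the circulating proteins, and fibroblasts, macrophages and mesothelial cells are known to make some of them locally.

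The genes of the set differed in both direction and size. Serping1, the C1 inhibitor gene, was 43.2-fold higher in pEpiCs than in CDCs and 56.6-fold lower in cdc_EpiCs than in pEpiCs. C2 was 17.7-fold higher in cdc_EpiCs than in CDCs, and Cd55 was 4.06-fold higher. C3, the central component, was 2.00-fold higher in pEpiCs and 3.23-fold higher in cdc_EpiCs than in CDCs. C4b was highest in pEpiCs and lowest in cdc_EpiCs. In bulk RNA, fewer cells that express a gene and less RNA of it per cell cannot be told apart. Cfd, which encodes factor D, was at 0 counts in 8 libraries and at 2 in pEpiC library 1, where 3 counts were taken as the floor of detection.

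Totals were 22008833 to 22756045 expected counts per library. Levels below are counts per 1000000 counts (CPM) after TMM scaling of all libraries, given as mean ± SD over 3 libraries. Changes are log2 differences with their standard error from edgeR's quasi-likelihood test on the 6 libraries of a pair, with p-values adjusted by Benjamini-Hochberg over all genes tested and 0.05 as threshold. CDC libraries 1 and 2 held RNA of liver and blood, and some of heart muscle, that library 3 all but lacked or held less of. Alb, the albumin gene, had 660, 599 and 1 counts in CDC libraries 1, 2 and 3, and the summed level of 10 liver genes was 79.1, 84.2 and 24.8 CPM. The sum of 10 cardiomyocyte genes was 26.7, 26.8 and 9.97 CPM, and Myh6 had no count in library 3. Libraries of pEpiCs held macrophage RNA, most of it in library 1, where 11 macrophage markers summed to 862.1 CPM against 330.7 and 299.2 in libraries 2 and 3. All 8 genes of an epicardial list had counts in each library, and their sum was 525.9 to 550.0 CPM in CDCs, 4734 to 5531 in cdc_EpiCs and 505.2 to 530.9 in pEpiCs. The sum of cdc_EpiCs was carried by Upk3b and Lrrn4, at 55583 to 63219 and 43808 to 50451 counts, while Tbx18 was lower there than in CDCs (1171 to 1407 against 1970 to 2072 counts). The list was split in pEpiCs, where Wt1, Tcf21, Aldh1a2 and Lrrn4 had more counts than in CDCs, and Tbx18, Upk3b, Msln and Krt19 had fewer.

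**Figure D1:**
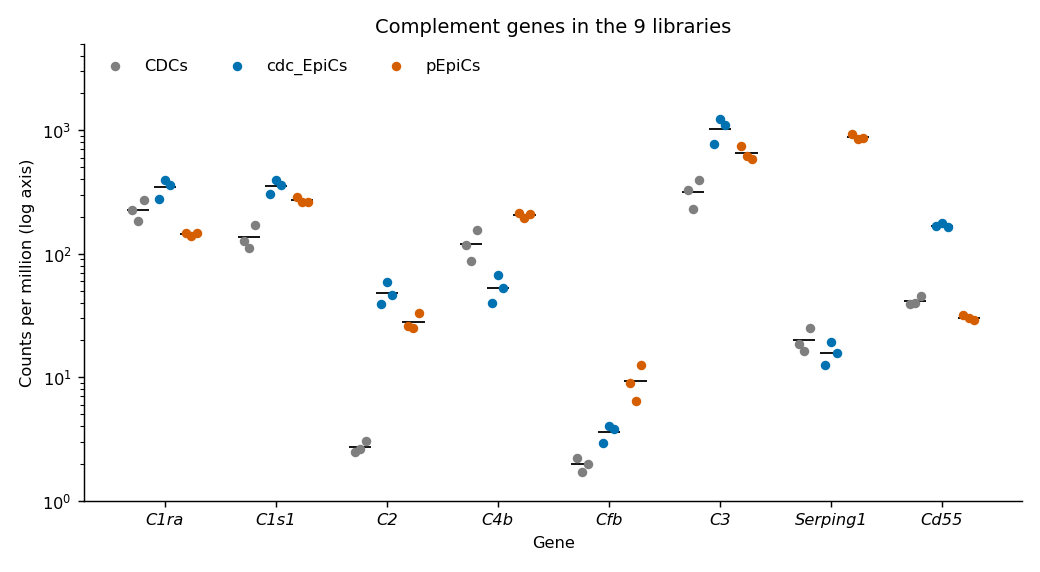
Level of 8 complement genes in each of the 9 libraries, in CPM on a log axis. Each point is a library, coloured by kind of cell, and each bar is the mean of 3 libraries. Serping1 lies between 856 and 926.9 in pEpiCs and between 12.5 and 25.2 elsewhere, and C2 lies between 2.49 and 3.05 in CDCs. Cfd, with no counts in 8 libraries, is not drawn.

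On the GRCm38 assembly (the mm10 build that the labels name, GENCODE M21 models), the genes fall into 2 clusters and 4 lone places. C1ra (chr6:124512405-124523443, plus strand) and C1s1 (chr6:124530345-124542359, minus strand) lie 6901 bases apart. C4b (chr17:34728380-34743882), Cfb (chr17:34856374-34862518) and C2 (chr17:34862604-34898265) lie in the class III region of the major histocompatibility complex, all on the minus strand, with 85 bases between Cfb and C2. C3 stands farther along the same chromosome (chr17:57203970-57228136, minus strand). Serping1 (chr2:84765387-84775444), Cd55 (chr1:130439027-130462744), both on the minus strand, and Cfd (chr10:79890853-79892655, plus strand) stand by themselves.

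Several of these genes have close copies or overlapping models, which limits what a read can tell. Of the 100-base windows of the longest coding transcript, 35.95% in C1ra were also found in another gene, mostly C1rb, 16.5% in C4b in C4a, 7.9% in C1s1 in C1s2 and 6.86% in Cd55 in Cd55b. In Cfb 81.03% and in C2 53.23% of windows were shared with Gm20547, a model that runs through both genes on the same strand and has no row of its own in the table used here. No window of C3, Serping1 or Cfd was shared. Gene models on the opposite strand overlap C2 (Zbtb12), C1s1 (Gm16567) and Cd55 (Gm16083), and since the use of strand is not given in the sources used here, reads of such pairs cannot be told apart.

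The sequences around the RefSeq starts of Cd55 and C1ra are shown beside those of their copies, because Cd55b rose with Cd55 in cdc_EpiCs while C1rb stayed at low counts beside an abundant C1ra, and that of C3 because it had the most counts of the set in cdc_EpiCs. RefSeq windows (GRCm38.p6, 250 bases before to 50 after the start) were at hand for 5 of the 9 genes. Lower-case runs are printed 5′ to 3′ on the strand of the gene, and capitals mark a match to a motif named after them. The windows of Cd55 (chr1:130462695-130462994, minus strand) and Cd55b (chr1:130422994-130423293, minus strand) align over 221 bases at 79.6% identity. Those of C1ra (chr6:124512371-124512670, plus strand) and C1rb (chr6:124570180-124570479, plus strand) align over 150 bases at 92.7% identity, with the shared stretch at the end of the C1ra window and at the start of the C1rb window. The RefSeq starts of C1ra and C1rb lie downstream of their GENCODE starts, so most of both windows is within the gene in GENCODE. The window of C3 is chr17:57228087-57228386 on the minus strand.
Cd55: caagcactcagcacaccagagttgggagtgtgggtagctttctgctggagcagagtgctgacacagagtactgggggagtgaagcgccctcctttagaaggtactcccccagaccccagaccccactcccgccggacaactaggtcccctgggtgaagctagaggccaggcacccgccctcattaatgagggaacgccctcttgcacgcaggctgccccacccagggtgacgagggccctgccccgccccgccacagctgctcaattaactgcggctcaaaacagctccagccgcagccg
Cd55b: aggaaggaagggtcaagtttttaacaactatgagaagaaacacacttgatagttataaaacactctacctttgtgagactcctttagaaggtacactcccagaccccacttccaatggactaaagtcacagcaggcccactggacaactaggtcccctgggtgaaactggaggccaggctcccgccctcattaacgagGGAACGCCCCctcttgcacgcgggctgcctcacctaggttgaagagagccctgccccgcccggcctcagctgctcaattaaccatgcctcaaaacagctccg
C1ra: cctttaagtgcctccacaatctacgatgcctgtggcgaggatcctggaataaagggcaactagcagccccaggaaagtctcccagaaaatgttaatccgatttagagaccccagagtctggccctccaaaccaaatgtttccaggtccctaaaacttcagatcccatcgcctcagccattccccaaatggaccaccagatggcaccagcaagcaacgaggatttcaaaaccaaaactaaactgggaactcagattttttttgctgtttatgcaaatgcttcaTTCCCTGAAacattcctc
C1rb: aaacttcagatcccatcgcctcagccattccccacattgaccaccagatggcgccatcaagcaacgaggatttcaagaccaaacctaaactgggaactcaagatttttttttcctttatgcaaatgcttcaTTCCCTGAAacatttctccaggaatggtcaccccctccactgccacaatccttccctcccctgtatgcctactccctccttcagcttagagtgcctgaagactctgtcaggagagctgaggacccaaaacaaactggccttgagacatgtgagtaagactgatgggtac
C3: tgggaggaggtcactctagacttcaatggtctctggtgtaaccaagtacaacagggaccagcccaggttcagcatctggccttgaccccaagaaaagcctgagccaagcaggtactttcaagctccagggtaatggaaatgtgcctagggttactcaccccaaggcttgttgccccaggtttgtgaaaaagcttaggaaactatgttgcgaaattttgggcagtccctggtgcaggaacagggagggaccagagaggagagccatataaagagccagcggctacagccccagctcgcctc

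Motifs of 3 inducible transcription factor families were searched on both strands, and no match overlapped another. The kappa B motif GGGNNNTTCC was found in 5.56% of 32851 RefSeq windows, the interferon-stimulated response element GAAANNGAAA in 3.44% and the STAT motif TTCNNNGAA in 8.30%. Cd55b held a kappa B match at position -52 from its start, on the opposite strand, and Cd55 held none. C1ra held a STAT match at position 32, and C1rb held the same letters at position -119. C3, C1s1 and Cfd held no match to any of the 3 motifs in these windows. A match describes the letters alone and says nothing of binding.

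Among the C1 proteases, C1ra and C1s1 were abundant in all libraries but did not move together. C1ra, the gene for C1r, was at 224.2, 182.7 and 274.2 CPM in CDC libraries 1 to 3, at 278.9, 397.3 and 358.6 in cdc_EpiCs and at 146.2, 140.1 and 147.9 in pEpiCs. C1s1, the gene for C1s, was at 126.9, 112.3 and 170.4 CPM in CDCs, at 305.0, 395.7 and 358.0 in cdc_EpiCs and at 285.7, 262.8 and 263.7 in pEpiCs. For both genes no library of a kind overlapped those of another kind, although the lowest cdc_EpiC library of C1ra was close to the highest CDC library. Against CDCs, C1ra was lower in pEpiCs (log2 -0.68 ± 0.12 SE, adjusted p = 3.54e-04, edgeR) while C1s1 was higher (0.95 ± 0.13, adjusted p = 5.18e-05). In cdc_EpiCs both were higher than in CDCs, C1ra by 0.60 ± 0.14 and C1s1 by 1.36 ± 0.13 on the log2 scale (edgeR, adjusted p = 0.00123 and 2.33e-07). C1ra was also higher in cdc_EpiCs than in pEpiCs (1.24 ± 0.11, adjusted p = 2.25e-06, edgeR). Per transcript length (TPM, transcripts per 1000000 transcripts), the ratio of C1ra to C1s1 was 1.77 ± 0.09 in CDCs, 1.03 ± 0.05 in cdc_EpiCs and 0.566 ± 0.026 in pEpiCs (SD, n = 3). The C1r copy C1rb stayed at 8.7 to 16.65 counts in CDCs, 8.36 to 18.35 in cdc_EpiCs and 2.51 to 5.63 in pEpiCs, and C1s2 at 1.8 to 23.54 counts over all libraries. C1rl, a C1r-related gene 1761 bases from C1ra, was higher in cdc_EpiCs than in CDCs (log2 0.89, adjusted p = 4.26e-06, edgeR) and was at 25.8 ± 5.02 CPM in CDCs and 24.9 ± 0.92 in pEpiCs.

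The C1ra change between cdc_EpiCs and CDCs depended on the CDC libraries. In a fit of all libraries without CDC libraries 1 and 2, those with liver RNA, it was 0.32 with an adjusted p of 0.108 (edgeR, with the lone CDC library assumed to vary like the others). On log2(TPM + 1), where the median of all genes moved to 0.41 between pEpiCs and CDCs, C1ra was at -0.16 (limma, adjusted p = 0.301), that is -0.58 relative to that median.

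C2 and C4b, whose products make up the classical C3-cleaving enzyme, moved in opposite directions in cdc_EpiCs. C2, the protease of that enzyme, was at 2.49, 2.63 and 3.05 CPM (54 to 67 counts) in CDCs. It was at 39.6, 59.5 and 46.6 CPM in cdc_EpiCs and at 26.2, 25.1 and 33.4 CPM in pEpiCs. All 6 libraries of cdc_EpiCs and pEpiCs lay above all CDC libraries, with no overlap between cdc_EpiCs and pEpiCs. The change against CDCs was 4.14 ± 0.16 (SE) in cdc_EpiCs and 3.33 ± 0.14 in pEpiCs on the log2 scale (edgeR, adjusted p = 5.05e-12 and 1.66e-08). Between cdc_EpiCs and pEpiCs it was 0.77 ± 0.15 (adjusted p = 7.52e-04, edgeR), and 0.37 (limma, adjusted p = 0.036) on log2(TPM + 1). Zbtb12, which overlaps C2 on the other strand, rose by 1.03 (adjusted p = 1.30e-07, edgeR) in cdc_EpiCs and was lower in pEpiCs than in CDCs (-0.33, adjusted p = 0.00789), at 7.83 to 19.8 CPM on average in the 3 kinds.

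C4b, which encodes C4, was at 117.3, 87.4 and 154.7 CPM in CDCs. In cdc_EpiCs it was at 39.6, 67.7 and 52.7 CPM and in pEpiCs at 214.6, 193.6 and 211.9 CPM. The kinds did not overlap, with pEpiCs highest and cdc_EpiCs lowest. C4b was 2.26-fold lower in cdc_EpiCs than in CDCs (log2 -1.18 ± 0.18, adjusted p = 3.88e-05, edgeR) and 3.92-fold lower than in pEpiCs (-1.97 ± 0.15, adjusted p = 7.99e-07). It was 1.69-fold higher in pEpiCs than in CDCs (0.75 ± 0.16, adjusted p = 0.00133). That last change was 0.41 (adjusted p = 0.102) without CDC libraries 1 and 2 in the fit of all libraries, and 0.39 (adjusted p = 0.0268) with an offset for transcript length. The copy C4a, a processed transcript in the GENCODE models, stayed at 5.52 to 21.05 counts.

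Cfb and Cfd are the proteases of the alternative pathway, and neither was abundant. Cfb, which encodes factor B, was at 2.21, 1.72 and 2.00 CPM in CDCs, at 2.93, 4.05 and 3.82 in cdc_EpiCs and at 9.05, 6.41 and 12.7 in pEpiCs. The kinds did not overlap, and pEpiCs spread the most, with 148 counts in library 2 and 290 in library 3. Cfb was 4.61-fold higher in pEpiCs than in CDCs (log2 2.21 ± 0.25, adjusted p = 1.59e-05, edgeR) and 1.81-fold higher in cdc_EpiCs than in CDCs (0.85 ± 0.19, adjusted p = 0.00109). Between cdc_EpiCs and pEpiCs it was -1.39 ± 0.24 (adjusted p = 3.54e-04, edgeR). The change between cdc_EpiCs and CDCs was 0.83 (adjusted p = 0.106) in the fit without CDC libraries 1 and 2. The TPM ratio of C2 to Cfb was 1.45 ± 0.24 in CDCs, 14.0 ± 1.28 in cdc_EpiCs and 3.27 ± 0.70 in pEpiCs. The ratio did not overlap between any kinds, and it was above that of CDCs in both cdc_EpiCs and pEpiCs. Cfd is made above all by fat cells. Of 5 adipocyte genes, the defining marker Adipoq had at most 2 counts in any library, and Fabp4, also expressed elsewhere, had 24 to 53 counts in CDCs and cdc_EpiCs and 691 to 752 in pEpiCs. At a floor of 3 counts, Cfd was not detectable at this depth in any kind, and it entered no test.

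C3 had the most counts of the set in CDCs and cdc_EpiCs. C3 was at 326.4, 229.4 and 396.4 CPM in CDCs and at 772.7, 1225 and 1098 CPM in cdc_EpiCs. In pEpiCs it was at 753.0, 614.6 and 584.4 CPM. Every library of cdc_EpiCs and pEpiCs exceeded every CDC library, and the lowest cdc_EpiC library lay just above the highest pEpiC library. The log2 change against CDCs was 1.69 ± 0.18 in cdc_EpiCs and 1.002 ± 0.169 in pEpiCs (edgeR, adjusted p = 6.07e-07 and 3.13e-04). Between cdc_EpiCs and pEpiCs it was 0.65 ± 0.15 (adjusted p = 0.00295, edgeR), and 0.36 (limma, adjusted p = 0.0534) on log2(TPM + 1), where the median of all genes was -0.33. Macrophages also express C3, and all pEpiC libraries held macrophage RNA. In pEpiC library 1, C3 was 1.26 times its mean in libraries 2 and 3, while the 11 macrophage markers were 2.34 to 4.197 times theirs. Without that library the change of C3 against CDCs was 0.88 on the log2 scale, and the part of macrophage RNA in it was not tested.

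Of the regulators, Serping1 separated pEpiCs from both other kinds. Serping1 was at 18.4, 16.3 and 25.2 CPM in CDCs, at 12.5, 19.2 and 15.7 CPM in cdc_EpiCs and at 926.9, 856.0 and 869.2 CPM in pEpiCs. In pEpiCs it had 19751 to 21518 counts per library, above C3 in each. CDCs and cdc_EpiCs overlapped. Serping1 was higher in pEpiCs than in CDCs by 5.43 ± 0.14 (SE), and the cdc_EpiC against pEpiC change was -5.82 ± 0.13 on the log2 scale (edgeR, adjusted p = 8.68e-10 and 1.89e-10). Between cdc_EpiCs and CDCs the value was -0.35 ± 0.16 and did not pass (edgeR, adjusted p = 0.0602). That call rested on single libraries. Without CDC library 2 it was -0.48 (adjusted p = 0.00984), without cdc_EpiC library 2 it was -0.52 (adjusted p = 0.0101), and without CDC library 3 it was -0.15 (adjusted p = 0.367, all edgeR). Without CDC libraries 1 and 2 in the fit of all libraries it was -0.69 (adjusted p = 0.00739).

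Cd55, the membrane regulator also known as decay-accelerating factor, separated cdc_EpiCs instead. Cd55 was at 39.3, 39.9 and 45.2 CPM in CDCs, at 166.4, 176.8 and 164.1 CPM in cdc_EpiCs and at 31.8, 30.3 and 28.9 CPM in pEpiCs. Its libraries were the most even of the set in cdc_EpiCs, and no kinds overlapped. The log2 change against CDCs was 2.02 ± 0.08 in cdc_EpiCs and -0.48 ± 0.07 in pEpiCs (edgeR, adjusted p = 8.72e-12 and 1.18e-04), and 2.46 ± 0.06 between cdc_EpiCs and pEpiCs (adjusted p = 2.23e-10, edgeR). On log2(TPM + 1) the change between pEpiCs and CDCs was -0.09 (limma, adjusted p = 0.459), that is -0.51 relative to the median of all genes, and that between cdc_EpiCs and pEpiCs was 2.01 (adjusted p = 2.37e-09). The neighbouring copy Cd55b, 16017 bases away, was at 1.52, 1.63 and 1.37 CPM in CDCs, at 8.34, 7.93 and 6.58 in cdc_EpiCs and at 1.47, 1.21 and 1.09 in pEpiCs. It was thus higher in cdc_EpiCs than in CDCs by 2.32 on the log2 scale (edgeR, adjusted p = 1.11e-08), at a small part of the level of Cd55. The transcripts of the pair are 92.2% identical, and whether reads of Cd55 were counted in Cd55b was not tested.

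**Figure D2:**
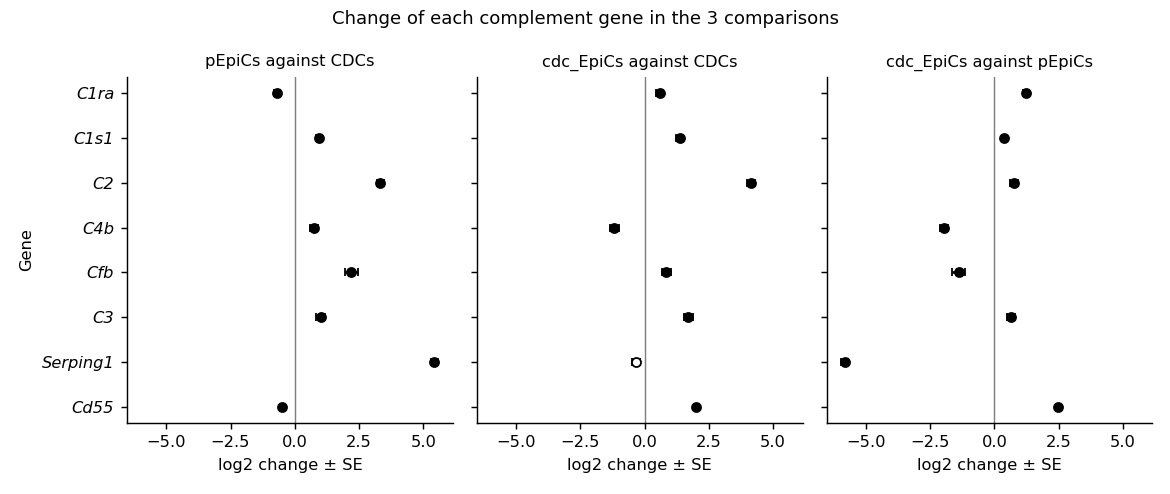
Log2 change of each complement gene in the 3 comparisons, with its standard error, from edgeR on 6 libraries each. Filled points passed an adjusted p of 0.05 and the open point did not. Serping1 lies at 5.43 for pEpiCs against CDCs, -0.35 for cdc_EpiCs against CDCs and -5.82 for cdc_EpiCs against pEpiCs.

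Read as counts, 8 of the 9 genes could be tested in each comparison, and the 3 comparisons share libraries. Between pEpiCs and CDCs 6 were higher (C1s1, C2, C4b, Cfb, C3 and Serping1) and 2 lower, while 39.8% of 13526 genes tested were higher and 38.5% lower. Between cdc_EpiCs and CDCs 6 were higher (C1ra, C1s1, C2, Cfb, C3 and Cd55), 1 was lower and 1 did not pass, beside 34.2% of 12976 genes higher and 34.6% lower. Between cdc_EpiCs and pEpiCs 5 were higher (C1ra, C1s1, C2, C3 and Cd55) and 3 lower (C4b, Cfb and Serping1), beside 40.3% of 13547 genes higher and 41.5% lower. Most genes tested thus passed in each comparison, so a passing gene of the set is what most genes showed. The median log2 change of the 8 was 0.98, 1.11 and 0.51 in this order, beside 0.02, 0.00 and -0.02 over all genes tested. A change of at least 2-fold was fitted for 4, 5 and 5 of them (50%, 62.5% and 62.5%), beside 30.3%, 21.8% and 36% of all genes tested. Between pEpiCs and CDCs, C3 at 1.002 lay just over that cut and C1s1 at 0.954 just under it. Both crossed it between settings, at 0.711 to 1.47 for C3 and 0.663 to 1.468 for C1s1. On log2(TPM + 1), 74.5% of the calls between pEpiCs and CDCs were higher against 50.8% on counts, and 32.9% of those between cdc_EpiCs and pEpiCs against 49.3%. The change between pEpiCs and CDCs rose by 0.44 for each doubling of transcript length over 10687 genes, and it fell by 0.44 between cdc_EpiCs and pEpiCs. On log2(TPM + 1) C1s1, at 0.37 ± 0.09 (adjusted p = 0.00264, edgeR) between cdc_EpiCs and pEpiCs, was at -0.02 (limma, adjusted p = 0.82).

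Per transcript length the set had a different leading gene in each kind. In CDCs C1ra led at 144.9 ± 34.3 TPM, before C3 at 116.8 ± 30.9 and C1s1 at 82.2 ± 21.3, and these neighbours overlapped between libraries. C4b, Cd55 and Serping1 followed, each overlapping the next. In cdc_EpiCs C3 led at 413.8 ± 89.8 TPM without overlap, before C1ra at 229.9 ± 38.8 and C1s1 at 222.4 ± 27.0, which overlapped, and Cd55 at 94.2 ± 3.72, which did not overlap with either neighbour. In pEpiCs Serping1 led at 1185 ± 37.9 TPM, before C3 at 319.2 ± 38.9, C1s1 at 224.7 ± 8.75, C1ra at 127.0 ± 2.08 and C4b at 92.2 ± 3.74, with no overlap among these. Cfb and then Cfd came last in all kinds.

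The summed TPM of the 9 genes was 429.8 ± 108 in CDCs, 1031 ± 173 in cdc_EpiCs and 2005 ± 83.3 in pEpiCs (SD, n = 3). On log2(TPM + 1) the median change of all genes tested was 0.41 between pEpiCs and CDCs and -0.33 between cdc_EpiCs and pEpiCs. On counts these medians were 0.02 and -0.02. The size of a difference between kinds in the summed TPM therefore depends on the unit. Serping1 made up 58.5% to 59.6% of that sum in pEpiC libraries, 4.28% to 4.67% in CDC libraries and 1.499% to 1.639% in cdc_EpiC libraries. C3 made up 39.9% ± 2.24 of the sum in cdc_EpiCs. The ratio of the C1 inhibitor transcript to the summed transcripts of its targets C1ra and C1s1 was 0.0856 ± 0.0034 in CDCs, 0.0353 ± 0.0023 in cdc_EpiCs and 3.37 ± 0.03 in pEpiCs. Within a kind this ratio spread less than the level of any of the 3 genes. The ratio of C3 to Cd55 was 4.76 ± 0.71 in CDCs and 4.37 ± 0.80 in cdc_EpiCs, which overlapped, and 14.1 ± 1.10 in pEpiCs, which did not overlap with them.

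**Figure D3:**
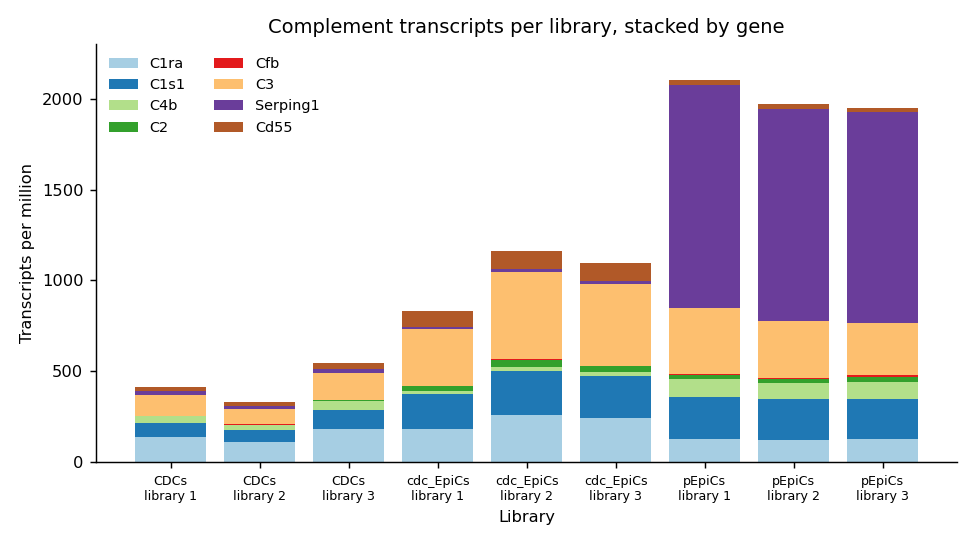
Transcripts per 1000000 transcripts (TPM) of 8 complement genes stacked for each of the 9 libraries, with a linear axis from 0. The stacks reach 332.0 to 545.2 in CDCs, 834.7 to 1162 in cdc_EpiCs and 1946 to 2100 in pEpiCs, where Serping1 takes more than all other genes together. Differences in height between kinds depend on the unit, as the median of all genes tested also shifted between kinds in TPM.

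Libraries of a kind differed in the level of most genes of the set at once. In CDCs, 7 of the 8 genes were highest in library 3 and 6 were lowest in library 2. In cdc_EpiCs, 8 of 8 were highest in library 2 and 7 were lowest in library 1. The share of all genes that were highest or lowest in those libraries was not counted. Whether this order is particular to the set is therefore not known. The coefficient of variation over 3 libraries had a median of 21.2% over the 8 genes in CDCs and 19.2% in cdc_EpiCs, beside 7.15% and 5.87% over all genes with at least 5 CPM in that kind. In pEpiCs the medians were 5.18% and 4.49%. C4b spread the most in CDCs and cdc_EpiCs, with a highest library 1.77 and 1.71 times the lowest, and Cd55 the least, at 1.15 and 1.08 times. C2 and Cfb also carry counting error at their low counts in CDCs. CDC library 3, the highest, was also the library that all but lacked liver and blood RNA, and the liver makes C3, C4 and other complement proteins. The genes were thus highest where the summed liver markers were lowest, and the part of liver RNA in their spread was not tested.

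**Figure D4:**
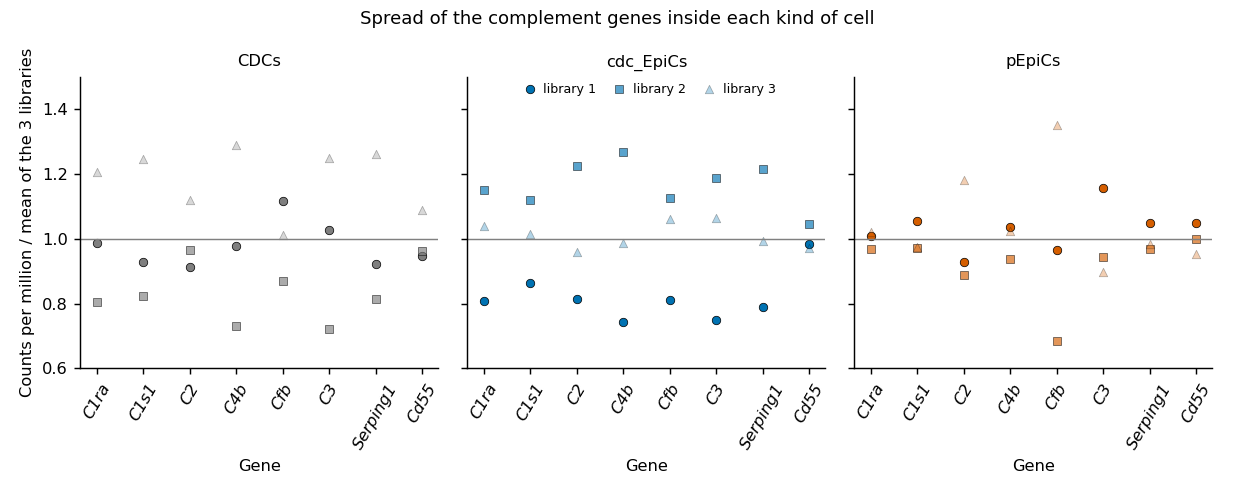
CPM of 8 complement genes in each library, divided by the mean of the 3 libraries of that kind, with the shape and shade of a point giving the library number. In CDCs library 3 is highest for 7 of 8 genes, in cdc_EpiCs library 2 is highest for all 8, and in pEpiCs most points lie close to 1.

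In pEpiC library 1, which held the most macrophage RNA, the 3 C1q chains, which macrophages make, were 2.91 to 3.07 times their mean in libraries 2 and 3, and 8 complement receptor genes were 0.99 to 2.97 times theirs. The 8 genes of the set with counts were 0.90 to 1.26 times theirs, with a median of 1.07. Serping1 stood at 1.07 times, C4b at 1.06 and Cfb at 0.95. Between the other 2 pEpiC libraries and CDCs the changes were 5.40 for Serping1, 3.38 for C2, 2.23 for Cfb and 0.72 for C4b. The defining macrophage markers were present in all pEpiC libraries, so these values hold macrophage RNA too, and its part in the levels of the set was not tested. In CDCs and cdc_EpiCs 3 or 4 of the 11 were at 0 in each library, with sums of 72.6 to 74.4 and 30.2 to 33.1 CPM.

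**Figure D5:**
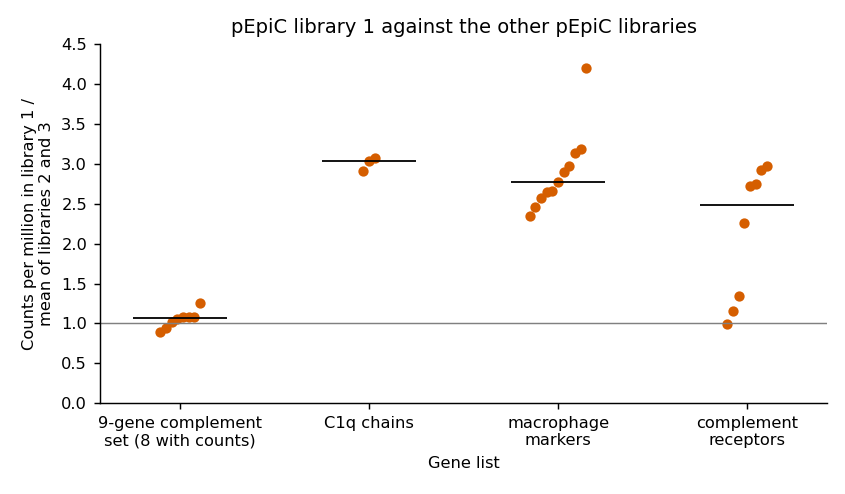
CPM in pEpiC library 1 divided by the mean of pEpiC libraries 2 and 3, for 4 gene lists. Each point is a gene and each bar the median of its list. The complement set lies between 0.90 and 1.26, the C1q chains between 2.91 and 3.07 and the macrophage markers between 2.34 and 4.197.

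A wider list of other complement genes (48 of its 49 names in the table) placed the set in its pathway. Between pEpiCs and CDCs 15 of 29 tested were higher, 7 were lower and 7 did not pass, between cdc_EpiCs and CDCs 14 of 21 were higher, 3 lower and 4 did not pass, and between cdc_EpiCs and pEpiCs 10 of 31 were higher, 17 lower and 4 did not pass. Their median log2 changes were 1.18, 0.89 and -1.06, beside 0.02, 0.0 and -0.02 over all genes tested. In the same order, 39.8%, 34.2% and 40.3% of all genes tested were higher, and 38.5%, 34.6% and 41.5% were lower. Most of the receptors tested, such as C5ar1 and Itgam, passed the filter on low counts through pEpiCs alone. So did other genes such as C1qa, C1qb, C1qc, C7 and Cd59a. Between cdc_EpiCs and CDCs, genes such as C6, C1s2 and Cfi passed the filter through cdc_EpiCs alone. They had 11 to 47 counts in cdc_EpiCs libraries and 1 to 9 in CDC libraries. C6 and C1s2 passed in the same way between cdc_EpiCs and pEpiCs. The direction of all these genes was fixed by the filter and adds nothing to the counts or the medians. Of the regulators, 7 of 10 tested were higher and 1 lower in cdc_EpiCs than in CDCs, beside 34.2% and 34.6% of all genes tested. Between pEpiCs and CDCs, 3 of 11 regulators were higher and 6 lower, beside 39.8% and 38.5%. Of these regulators, Cd59a and Cfi passed the filter through pEpiCs alone and C4bp through CDCs alone. Between cdc_EpiCs and CDCs, Cfi passed the filter through cdc_EpiCs alone.

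Several regulators outside the set were among the most changed. Clu, which encodes clusterin, a fluid-phase inhibitor of the terminal complex, was at 1233, 1630 and 1373 CPM in cdc_EpiCs, 169.4 to 240.9 in CDCs and 101.2 to 129.7 in pEpiCs, with no overlap (log2 2.81 against CDCs, adjusted p = 6.38e-11, edgeR). Cd59a, a membrane inhibitor of the terminal complex, was at 20.2 to 22.7 CPM in pEpiCs and had at most 1 count per library elsewhere, so it was at least 157-fold higher than in CDCs and cdc_EpiCs were at least 160-fold below pEpiCs, against a floor of 3 counts per library. In pEpiC library 1 it was at 22.7 CPM, close to 20.2 and 21.7 CPM in libraries 2 and 3.

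The other named genes of the list were proteases, recognition molecules and receptors. Masp1, a protease of the lectin pathway, was at 31.7 to 36.9 CPM in CDCs, 15.4 to 20.5 in pEpiCs and 1.14 to 2.08 in cdc_EpiCs, and its log2 change in cdc_EpiCs against CDCs was -4.41 (adjusted p = 9.77e-13, edgeR). Colec12, a scavenger receptor of the collectin family, was lower in cdc_EpiCs than in CDCs (-1.08, adjusted p = 6.32e-08, edgeR). C1qbp, which encodes a C1q-binding protein found mostly in mitochondria, was lower than in CDCs in both other kinds (-0.32 in cdc_EpiCs and -1.34 in pEpiCs, adjusted p = 0.00111 and 1.94e-08, edgeR). C4bp, for the C4b-binding protein, was at 7.40 to 9.93 CPM in cdc_EpiCs and at the floor in pEpiCs, at least 67.2-fold higher. C1qb and C5ar1 were at 26.6 to 83.7 and 8.29 to 27.8 CPM in pEpiCs and at the floor in the other kinds, at least 337-fold and 114-fold higher than in CDCs and at least 343-fold and 116-fold higher than in cdc_EpiCs, with library 1 the highest of pEpiCs for both.

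Each gene of the set with at least 5 CPM on average was compared with 10692 genes by the distance of its centred log2(CPM + 1) profile over the 9 libraries. The closest gene to C4b was Tnxb, for tenascin-X, at a distance of 0.49. Tnxb is also its neighbour on chromosome 17, read toward it from the opposite strand with 8564 bases between them. Tnxb was at 144.3, 103.5 and 174.0 CPM in CDCs, 48.6, 59.96 and 54.8 in cdc_EpiCs and 212.5, 216.8 and 196.6 in pEpiCs. Tnxb was highest in CDC library 3 and lowest in library 2, as were C4b, C1ra, C1s1, C3 and Serping1, while in pEpiCs its order of libraries differed from that of C4b. The closest genes to C2 included Wnt5a and Wt1, an epicardial transcription factor, at 0.96 and 1.07, after Plekha6 at 0.87. Cd55 was closest to St3gal1, Tprn and Bnc1, at 0.28 to 0.31, and C1s1 to H2-K1, a class I histocompatibility gene, at 0.37, then Spry2 and Tbc1d2b. Serping1 was closest to Crispld2, Ebf1 and Tshz2 (0.57 to 0.75), each near 0 outside pEpiCs, C3 to Nipal3, Pdlim4 and Sfrp2 (0.62 to 0.71), and C1ra to Kank1, Exog and Ogfod3 (0.45 to 0.48). Within the set C1s1 and C3 were the closest pair at 0.57, and Serping1 and Cd55 the farthest apart at 10.3. The 9 points share 3 kinds of cell, so these distances describe likeness of profile alone.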

How the data were processed

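The authors deposited a table of 18245 genes with expected counts, FPKM and TPM for 9 library columns, and 9 columns of means that were not used. Per the labels, 100-base read pairs were processed with HISAT2 2.0.4, Bowtie2 2.2.5, RSEM 1.2.12 and DESeq2 1.4.5 on mm10, without roles. Strand use and annotation version are not given in the sources used here. Of the deposited expected counts, 30.3% were not whole, so they were rounded. The deposited TPM values served for levels between genes, and the deposited FPKM values for an alternative.

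Each pair of kinds (6 libraries) was fitted in edgeR 4.0.16 (R 4.3.3) after filterByExpr (minimum count 10, minimum total 15) and TMM, with glmQLFit and glmQLFTest and Benjamini-Hochberg adjustment over all genes. The standard error is the log2 change divided by the root of F. limma 3.58.1 and DESeq2 1.42.0 served for alternatives, and Python 3.11.15, pandas 2.3.3, NumPy 2.4.6 and matplotlib 3.10.9 for the rest. The fits were tested on simulated data. Libraries of a kind differed beyond sampling of reads (chi-square per degree of freedom 4.72 to 21.8). The floor of 3 counts covers counting error alone, whereas the SD and the standard error also take in spread between libraries.

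The genes of the set, the wider and marker lists and the tests were chosen with earlier results of these data known. Named were all 9 genes, their close copies, from the wider list the 3 largest rises and falls past the threshold in each comparison (5 CPM or more in the higher kind), and the 3 genes of closest profile. Marker genes, Cfb and C2 neighbours, Fabp4 and genes given as examples of the filter were named after their values were seen. A gene that this rule names is not reported here.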

Additional observations from a re-analysis of the deposited data

How the results depend on the processing

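Across the alternatives, 413 values of single genes kept their direction and side of the threshold, 6 lost and 4 gained a call and 1 reversed, while 157 counts lay within 1.5 times the reported count and 2 did not. Counts of other complement genes called fell from 22 to 9 (of 14 tested) between pEpiCs and CDCs and from 27 to 14 (of 17 tested) between cdc_EpiCs and pEpiCs with at least 10 counts in every library, a filter that drops genes at 0 in a kind. C1s1 reversed to -0.021 between cdc_EpiCs and pEpiCs on log2(TPM + 1), where the median of all genes was -0.33 against -0.02 on counts, and the cause was not tested. C1ra and Cd55 lost their calls between pEpiCs and CDCs under the same scaling.

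No pairing by library number was seen, as correlations of same-numbered deviations were -0.16 to 0.11. With so few libraries per kind, such values cannot show that the libraries were unpaired. With the replicate block Serping1 passed between cdc_EpiCs and CDCs (-0.35, adjusted p = 0.0258, edgeR), and all 8 genes tested then passed there against 7 without it. The block changed no other call of the set. Leaving out each library in turn gave 7 to 8 calls in that comparison and 8 in the other comparisons. The depth puts Cfd at or under the floor, and Cfb and C2 at 38 to 67 counts in CDCs.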

Other observations

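The class III region around C4b, Cfb and C2 was described gene by gene. Of 8 protein-coding neighbours on the list, the 6 genes Ehmt2, Zbtb12, Nelfe, Skiv2l, Dxo and Stk19 were lower in pEpiCs than in CDCs (log2 -0.29 to -1.45, adjusted p at most 0.00789, edgeR), and Tnxb was higher (0.54, adjusted p = 0.00638). Cfb, whose model ends 1 base from the end of the Nelfe model and is read from the other strand, was higher in pEpiCs (2.21) while Nelfe was lower (-1.45). Cyp21a1 had too few counts to be tested. In cdc_EpiCs against CDCs, Ehmt2, Zbtb12, Skiv2l and Stk19 were higher (0.28 to 1.03), Dxo and Tnxb were lower (-0.51 and -1.38), and Nelfe was at -0.19 and did not pass (adjusted p = 0.0581). C2 at 4.14 thus rose by more than any of these neighbours in that comparison.

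Other complement genes at low level also differed. Cfi, for factor I, which cleaves C3b and C4b, was at 27.1 to 30.0 CPM in pEpiCs, 1.29 to 2.08 in cdc_EpiCs and 0.18 to 0.41 in CDCs. Colec11, a collectin, was at 9.03 to 13.0 CPM in cdc_EpiCs and 2.27 to 2.91 in the other kinds. Both were named after their values were seen.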
